A study of Mus musculus with 4 samples.

Results

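The genes described here are 8 autosomal genes with large differences between miR-128OE and Ctrl hearts that both replicates of a group share: Nnt, Ifi202b, Mndal, Pisd-ps1, 4930481A15Rik, Gm5801, E330017L17Rik and Trnp1. They were taken by name from the 24454 genes of the count table, after their Entrez identifiers had been matched to symbols, and all 8 were found. They were chosen by their counts in these 4 libraries, as possible signs of strain background, so their own differences are given as a description with no test. Of the 8, only Ifi202b, Gm5801 and E330017L17Rik had 0 counts in both libraries of a group, as did 0.0364% of the autosomal genes tested. The other 5 had counts in every library, so the name on-off gene fits the counts of these 3 only.

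The libraries are RNA-seq of mouse hearts at postnatal day 7. Ctrl libraries are WH7 and WH8, and miR-128OE libraries are WH9 and WH10. By the study's methods, Ctrl mice carry the miR-128TetRE allele, a tetracycline-responsive miR-128 cassette placed at Rosa26 in C57BL/6N embryonic stem cells, and miR-128OE mice carry the same allele together with α-MHC-tTA, which drives the transactivator from the cardiomyocyte α-MHC promoter and switches the cassette on when doxycycline is absent. The α-MHC-tTA mice came from The Jackson Laboratory, as did the Cre mice to which the chimeric knockin males were bred. The colony is described as C57BL/6 without a substrain. Neither the labels nor the methods say whether a library is 1 heart or a pool, or whether the hearts of a group came from separate litters, so p-values measure only the spread between these libraries.

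Inbred mouse strains carry fixed alleles, and a gene that is deleted, truncated or silenced in a strain can be present in 1 colony and missing in another. C57BL/6J and C57BL/6N are sister substrains that differ at a small number of such genes. The best known is Nnt, which encodes the mitochondrial nicotinamide nucleotide transhydrogenase: C57BL/6J carries a deletion of several internal exons, and C57BL/6N carries the intact gene. The mm10 reference is the C57BL/6J genome, so reads from exons that it lacks have no place to align. The Ifi200 cluster of interferon-inducible genes on chromosome 1 differs in gene content and expression among inbred strains, and Ifi202b, which encodes a cytosolic DNA-binding protein, is known for very low expression in C57BL/6 and higher expression in several other strains. For the other listed genes no strain variant is stated here. Gene counts hold no alleles, and genotype at the loci was not measured.

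Several of the listed genes have near-identical copies elsewhere, which bears on how their reads can be assigned. Gm5801 is a transcribed pseudogene of 780 bases on chromosome 14 that aligned without gaps to the transcript of Ube2j2, a ubiquitin-conjugating enzyme of the endoplasmic reticulum encoded on chromosome 4. The copies were 99.2% identical over 780 bases, with 6 mismatches and a longest identical run of 198 bases. With positions counted from 1 at the 5′ end of the aligned bases, the Ube2j2 base first and the Gm5801 base last, the mismatches were G175A, A273G, G390A, C589G, C678T and C735T. The stretch of 75 bases that holds the last pair is shown because it is the kind of interval in which a read can be told apart, with the differing bases in capitals. It is read 5′ to 3′ from GENCODE transcripts of GRCm38, and for Gm5801 lies at chr14:56010581-56010655 on the minus strand.
Gm5801: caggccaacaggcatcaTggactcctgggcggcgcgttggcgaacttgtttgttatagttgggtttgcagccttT
Ube2j2: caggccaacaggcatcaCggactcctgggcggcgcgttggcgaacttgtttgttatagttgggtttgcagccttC

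The overexpressed microRNA is shown so that its seed can be compared with the listed transcripts. The mature sequence from RefSeq, with the seed (bases 2 to 8) in capitals, reads as follows.
mmu-miR-128-3p: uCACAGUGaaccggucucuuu
The complement of the seed, CACTGTG, was searched on the sense strand of the longest GENCODE transcript of each tested gene and occurred in 40.6% of 13996 genes. Among the 8, Nnt had 2 matches, Ifi202b had 1 and Pisd-ps1 had 1, while the other 5 had 0. These matches are letters in a transcript and not shown sites. Nnt and Ifi202b had more counts in miR-128OE, and Pisd-ps1 had fewer.

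The libraries held 8096870 to 14359838 counts. The precursor gene Mir128-2 had 0 counts in both Ctrl libraries, 2 in WH9 and 10 in WH10, and Mir128-1 had 0 in all 4, so the transgene was at most faintly visible in these counts. Xist, transcribed from the inactive X chromosome of females, showed 14543 and 11339 counts in Ctrl against 94 and 132 in miR-128OE, and the Y-linked Ddx3y had 13 and 7 against 1442 and 1768. Sex therefore coincides with the groups, and differences by sex, by transgene and by inherited alleles cannot be told apart here. Across 14266 genes tested by edgeR's quasi-likelihood test, 2347 were higher and 2143 lower in miR-128OE at a Benjamini-Hochberg adjusted p under 0.05, and scaling to total counts in place of TMM factors (trimmed mean of M-values) gave 1612 higher and 2945 lower. The cardiomyocyte markers were abundant in every library, at 45649 to 49240 CPM (counts scaled to TMM-adjusted library size) in Ctrl and 62661 to 64245 in miR-128OE when summed over 8 genes.

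All 8 listed genes had miR-128OE libraries that did not overlap with the Ctrl libraries, which held for 68.0% of autosomal genes tested. Of the 8, 3 were higher and 5 were lower in miR-128OE. Of all autosomal genes, 31.3% passed the adjusted p, 16.4% as higher and 14.9% as lower. The smallest log2 difference among the 8, that of Nnt, was 1.09, and 4.41% of autosomal genes passed the adjusted p with a difference at least that large in either direction. Outside the list these were 599 genes, 210 of them higher and 389 lower, so the list is a choice among many and not all genes that meet its words. The rule names no threshold, so no member stands just inside or outside of one.

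**Figure D1:**
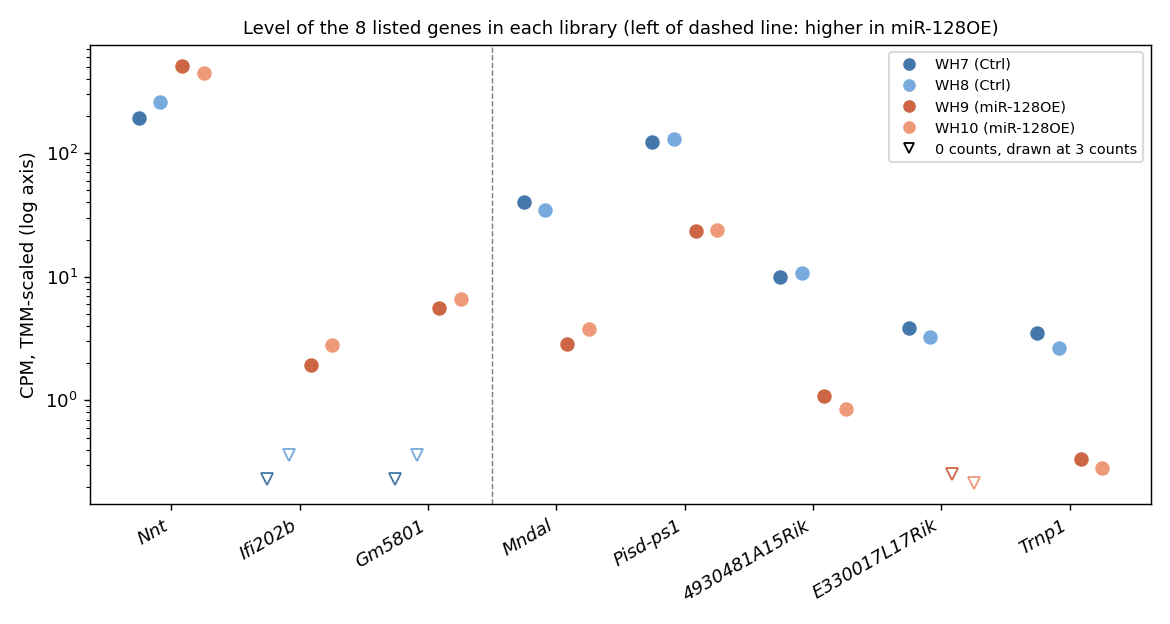
CPM (TMM-scaled, logarithmic axis) of each listed gene in the 4 libraries, with points for libraries and open triangles for 0 counts drawn at the level of 3 counts. Within a group the points of a gene lie within a ratio of 1.44, and for no gene do the groups overlap.

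Nnt was the most abundant of the 8. Its counts were 2488 in WH7 and 2142 in WH8, and 6086 in WH9 and 6237 in WH10. The level was 225 ± 45.1 CPM (SD, n = 2) in Ctrl and 478 ± 46.8 CPM (SD, n = 2) in miR-128OE, which is 2.13-fold higher in miR-128OE with a log2 difference of 1.09 (SE 0.13). The lower miR-128OE library lay 1.73-fold above the higher Ctrl library. Divided by the length of its longest transcript, Nnt stood at 65.0 CPM per kb in Ctrl and 138 in miR-128OE, so both groups expressed the transcript and no library was near 0. The gene lies at chr13:119335527-119409257 in GRCm38.p6. By rank of the size of its log2 difference, Nnt was at place 758 of 13749 autosomal genes, the lowest place of the 8. Whether the reads of any library covered exons that mm10 lacks cannot be read from gene counts.

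Other genes of the pathway that Nnt serves were higher in miR-128OE or did not pass the test. Nnt uses the proton gradient of the inner membrane to make NADPH from NADH, and that NADPH serves the glutathione and thioredoxin systems of the matrix. Of 17 other tested genes for mitochondrial NADPH and peroxide handling, 10 were higher and 7 did not pass the test, with a median log2 difference of 0.35 against -0.01 over all autosomal genes. Over all autosomal genes tested, 16.4% were called higher. Prdx5, a peroxiredoxin, had 1679 and 1108 counts in Ctrl against 2940 and 3012 in miR-128OE (log2 difference 0.81, edgeR adjusted p = 0.000284). Sod2, the manganese superoxide dismutase, rose by 0.72 (adjusted p = 0.000474), and Prdx3, the peroxiredoxin of the matrix, by 0.76 (adjusted p = 0.000481). Without WH9 the count was 4 of 17. The ratio of Nnt to Idh2, another source of mitochondrial NADPH, was 25.5 and 27.9 Nnt counts per 100 Idh2 counts in Ctrl and 37.7 and 37.8 in miR-128OE, so the difference of Nnt was the larger of the pair. In bulk hearts, fewer cells of a type and less RNA per cell cannot be told apart. The brown fat markers, which mark another tissue rich in mitochondria, summed to 33.1 and 33.3 CPM in Ctrl and to 71.3 and 54.2 in miR-128OE. Of the 4 tested, 3 were higher, namely Ucp1 (56 and 3 against 253 and 189 counts), Cidea and Adipoq, with 1 by DESeq2, 1 without WH7 and 1 without WH9. Elovl3 had 1 count in each library. The 3 higher of 4 stand beside 16.4% called higher among all autosomal genes tested. The part of fat tissue in the Nnt counts was not tested.

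Ifi202b and Mndal both lie in the Ifi200 cluster on chromosome 1, and their counts lay in opposite directions. The family is induced by interferon, and several members bind DNA through HIN domains. Ifi202b (chr1:173962569-173982844) had 0 counts in both WH7 and WH8, and 23 in WH9 and 39 in WH10. Its level in miR-128OE was 2.36 ± 0.602 CPM (SD, n = 2), at least 6.55-fold higher than the Ctrl libraries, where 3 counts per library, the limit that a count of 0 allows, correspond to 0.233 CPM in WH7 and 0.360 CPM in WH8. The bound uses the higher of these limits. Mndal (chr1:173857215-173880382), whose name stands for the myeloid nuclear differentiation antigen-like gene, had 515 and 291 counts in Ctrl against 34 and 53 in miR-128OE. Its level was 37.4 ± 3.58 CPM (SD, n = 2) in Ctrl and 3.32 ± 0.655 CPM (SD, n = 2) in miR-128OE, which is 11.3-fold lower in miR-128OE with a log2 difference of -3.48 (SE 0.17). The lower Ctrl library stood 9.23-fold above the higher miR-128OE library. Only 82187 bases separate the genes, and Ifi211 and Ifi203 lie between them.

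The rest of the family did not pass the test in either direction. Of 8 other Ifi200 genes tested, 0 were called by edgeR and 0 by DESeq2, and 1 had an unadjusted p under 0.05. The share called by edgeR over all autosomal genes tested was 31.3%. The median log2 difference of these 8 was -0.16. Ifi203, the most abundant member and the tested gene nearest to Ifi202b, had 1331 and 1165 counts in Ctrl against 1188 and 1508 in miR-128OE (log2 difference -0.22, edgeR adjusted p = 0.218). Aim2, the cytosolic DNA sensor of the inflammasome, had 118 and 73 against 110 and 162 counts, and Ifi204 had 36 and 26 against 34 and 49. Ifi207 had 65 and 35 against 45 and 69, and Ifi208 had 18 and 10 against 29 and 28. The remaining 3 were scarce. Ifi205 had 20 and 15 against 19 and 4, Ifi209 had 15 and 12 against 5 and 11, and Ifi211, nearest to Mndal, had 11 and 8 against 5 and 2 (log2 difference -1.69, edgeR adjusted p = 0.0758). Leaving out WH7 put 1 of the 8 past the threshold. Within each library, Mndal stood at 38.7 and 25.0 counts per 100 Ifi203 counts in Ctrl and at 2.86 and 3.51 in miR-128OE, so the groups did not overlap, with a wide spread within Ctrl.

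**Figure D2:**
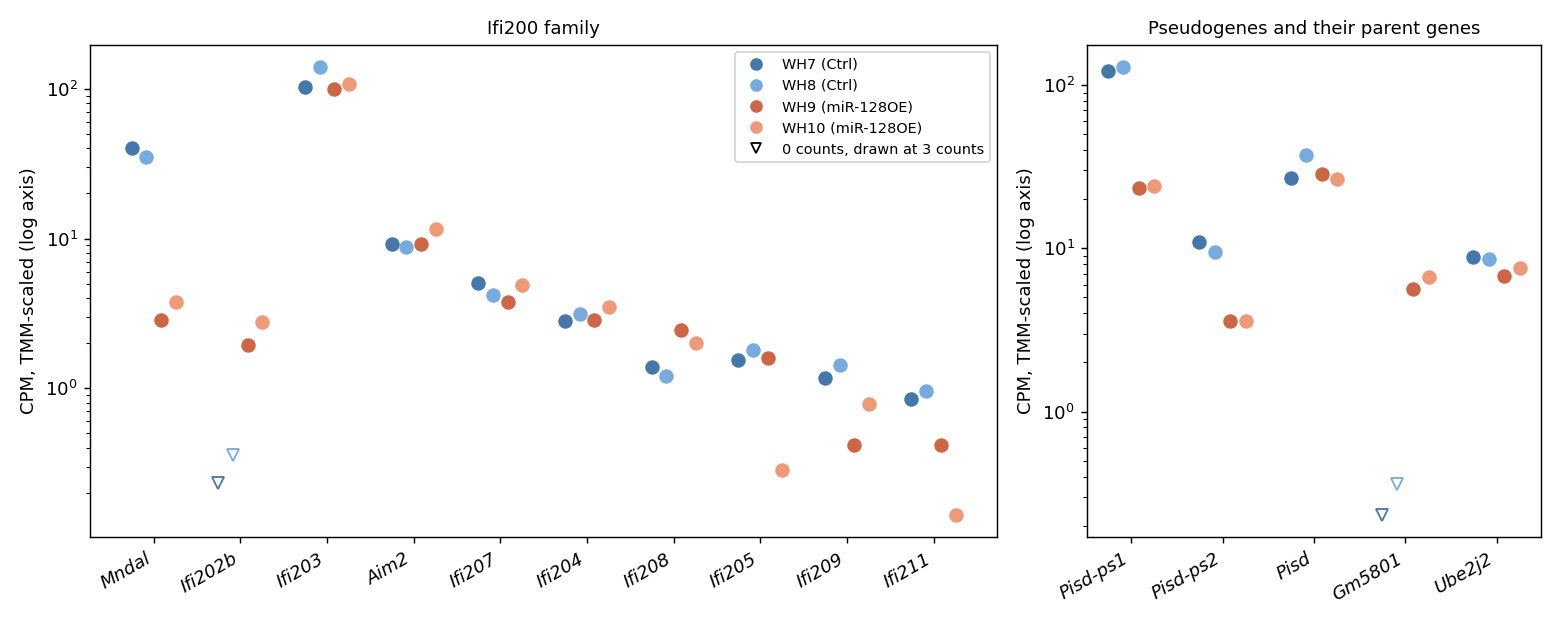
CPM (TMM-scaled, logarithmic axis) of the Ifi200 family and of the pseudogenes Pisd-ps1, Pisd-ps2 and Gm5801 with their parent genes in the 4 libraries; open triangles mark 0 counts, drawn at the level of 3 counts. The groups lie far apart for Mndal, Ifi202b and Gm5801 and overlap for Ifi203, while the points of Ube2j2 and Aim2 lie close together without overlapping between groups.

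Mndal shares sequence with its relatives, so its counts are uncertain where reads could be split. Its transcripts were 96.1% identical to Ifi203 over 762 bases, 95.7% to Ifi204 over 776 bases and 95.4% to Ifi211 over 1070 bases. The longest identical runs against Ifi205 and Ifi211 were 182 bases each. How reads that match several genes were counted is not given in the sources used here.

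Other genes induced by interferon were lower in miR-128OE or did not pass the test. Of 28 tested interferon-stimulated genes outside the Ifi200 family, 14 were lower and the other 14 did not pass, with a median log2 difference of -0.79. Over all autosomal genes tested, 14.9% were called lower. Rsad2, the antiviral enzyme viperin, had 717 and 412 counts in Ctrl against 269 and 303 in miR-128OE (log2 difference -1.25, edgeR adjusted p = 9.87e-05). Stat2, a transcription factor of the interferon response, fell by 0.80 on the log2 scale (adjusted p = 0.00108), and Oasl2 fell by 1.27 (adjusted p = 0.00187). The count of lower genes was 7 without WH9 and 9 without WH10. Ifi202b thus lay opposite to the direction of these calls and Mndal on the same side as them. Leukocyte and macrophage markers, a possible source of Ifi200 transcripts, summed to 118 and 89.2 CPM in Ctrl and to 94.2 and 96.4 CPM in miR-128OE, and the groups overlapped. Of the 9 tested, 0 were called by edgeR and 0 by DESeq2, and 2 had an unadjusted p under 0.05. The share called by edgeR over all autosomal genes tested was 31.3%. Csf1r had the most counts among them, with 389 and 140 in Ctrl against 230 and 294 in miR-128OE.

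The promoter table of RefSeq for GRCm38.p6, with 250 bases before and 50 after each start, held 5 of the 8 genes and Mndal with 2 starts. The interferon response motif, written here as GAAA, any 2 bases and GAAA again and searched on both strands, occurred in 3.44% of 32851 promoters. Among the listed genes it occurred in both Mndal windows and in no other. The upstream bases of the outer Mndal start are shown with the match in capitals, at chr1:173880188-173880437 on the minus strand.
Mndal, upstream: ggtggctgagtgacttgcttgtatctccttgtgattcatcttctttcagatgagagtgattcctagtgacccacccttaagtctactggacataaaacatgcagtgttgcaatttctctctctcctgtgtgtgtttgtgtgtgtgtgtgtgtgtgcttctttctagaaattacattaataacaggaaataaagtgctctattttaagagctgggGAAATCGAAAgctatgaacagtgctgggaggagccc
The Ifi202b window is set beside it because the pair lies in 1 cluster, at chr1:173982845-173983094 on the minus strand, and the motif's letters are not in it.
Ifi202b, upstream: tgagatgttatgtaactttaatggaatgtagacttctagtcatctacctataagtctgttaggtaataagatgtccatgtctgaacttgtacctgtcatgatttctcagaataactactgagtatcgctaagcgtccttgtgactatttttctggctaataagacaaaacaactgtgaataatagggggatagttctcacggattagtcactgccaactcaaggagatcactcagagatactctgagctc
Both windows are from the C57BL/6J reference, and the promoters of the mice sequenced may differ from it.

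Pisd-ps1 is a transcribed pseudogene on chromosome 11 (chr11:3124002-3131945) of Pisd, the mitochondrial enzyme that makes phosphatidylethanolamine from phosphatidylserine. It had 1573 and 1076 counts in Ctrl against 278 and 336 in miR-128OE. The level was 126 ± 4.94 CPM (SD, n = 2) in Ctrl and 23.7 ± 0.442 CPM (SD, n = 2) in miR-128OE, which is 5.30-fold lower in miR-128OE with a log2 difference of -2.41 (SE 0.09). The parent gene Pisd did not follow it, with 348 and 309 against 340 and 374 counts (log2 difference -0.20, edgeR adjusted p = 0.344). Pisd-ps2, a further pseudogene on chromosome 17, had 140 and 79 against 43 and 50 counts and fell by 1.51 on the log2 scale (edgeR adjusted p = 0.00109). Within each library there were 452 and 348 Pisd-ps1 counts per 100 Pisd counts in Ctrl and 81.8 and 89.8 in miR-128OE, so the pseudogene had more counts than its parent in Ctrl only. Pisd-ps1 was 94.1% identical to Pisd over 1128 bases and 94.8% identical to Pisd-ps2 over 1061 bases, with longest identical runs of 97 and 81 bases. The counts of all 3 are uncertain where reads could be split between them.

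Among 12 other genes for phosphatidylserine and phosphatidylethanolamine synthesis, Pisd-ps2 included, 2 were higher and 3 were lower in miR-128OE, with a median log2 difference of -0.13. Over all autosomal genes tested, 16.4% were called higher and 14.9% lower, and so small a list says little beside these shares. Ptdss1, a phosphatidylserine synthase, rose by 0.60 (edgeR adjusted p = 0.00173). Prelid3b, a carrier of phosphatidylserine into mitochondria, rose by 0.47 (adjusted p = 0.00704). The other lower genes were Etnk1 (log2 difference -0.51) and Pcyt2 (-0.42), both of the ethanolamine route. Of the 12, 2 were called without WH9 and 3 without WH10. The end of Pisd-ps1 overlaps Sfi1, a centrosome gene, which had 507 and 359 against 273 and 387 counts (log2 difference -0.70, edgeR adjusted p = 0.00286). Whether counting used strand is not given, so reads of the overlap cannot be told apart.

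Gm5801 had the largest fitted log2 difference of all autosomal genes tested, with 0 counts in WH7 and WH8, 67 in WH9 and 93 in WH10. The level in miR-128OE was 6.13 ± 0.713 CPM (SD, n = 2), at least 17-fold higher than the Ctrl libraries by the same limit of 3 counts per library. Its near-identical parent Ube2j2 was counted in all libraries, with 114 and 72 counts in Ctrl against 81 and 106 in miR-128OE (log2 difference -0.28, edgeR adjusted p = 0.294). Gm5801 stood at 0 counts per 100 Ube2j2 counts in Ctrl and at 82.7 and 87.7 in miR-128OE. Ube2j2 was thus counted in Ctrl hearts without any count at Gm5801. How reads that fit both copies were counted is not given, and 4 hemoglobin genes, which also have near-identical copies, were listed at 0 in every library, so the zeros of Gm5801 are uncertain to that extent. In the printed pair of sequences, bases 678 and 735 are among the 6 positions where the copies differ.

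E330017L17Rik and Trnp1 lie 3.58 Mb apart on chromosome 4, and both had fewer counts in miR-128OE. E330017L17Rik (chr4:129906226-129908996), a long noncoding RNA, had 50 and 27 counts in Ctrl and 0 in both miR-128OE libraries. The Ctrl level was 3.56 ± 0.454 CPM (SD, n = 2), and the miR-128OE level was at least 14.1-fold lower, with 3 counts per library equal to 0.252 CPM in WH9 and 0.214 CPM in WH10. It was the only autosomal gene tested with 0 counts in both miR-128OE libraries and counts in both Ctrl libraries. Trnp1 (chr4:133491097-133499645), which encodes a nuclear protein studied in the growth of the cerebral cortex, had 45 and 22 counts in Ctrl against 4 and 4 in miR-128OE. Its level was 3.07 ± 0.604 CPM (SD, n = 2) in Ctrl and 0.311 ± 0.0358 CPM (SD, n = 2) in miR-128OE, 9.86-fold lower in miR-128OE with a log2 difference of -3.29 (SE 0.46). With 4 counts in a library, the lower level is close to the limit of 3 counts, and the fold is the least precise of the 5 genes with counts in all libraries.

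4930481A15Rik, a long noncoding RNA at chr19:5406815-5422847, had 128 and 89 counts in Ctrl against 13 and 12 in miR-128OE. The level was 10.3 ± 0.524 CPM (SD, n = 2) in Ctrl and 0.974 ± 0.167 CPM (SD, n = 2) in miR-128OE, 10.6-fold lower in miR-128OE with a log2 difference of -3.40 (SE 0.28). Its end overlaps Drap1, which encodes a transcriptional corepressor and had 1871 and 1129 against 1833 and 2122 counts (log2 difference 0.12, edgeR adjusted p = 0.268). A stretch of 191 bases was 95.8% identical to Uqcr10, a small subunit of respiratory complex III with 5717 and 3789 against 6989 and 7945 counts, and reads from this stretch are uncertain in the same way.

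**Figure D3:**
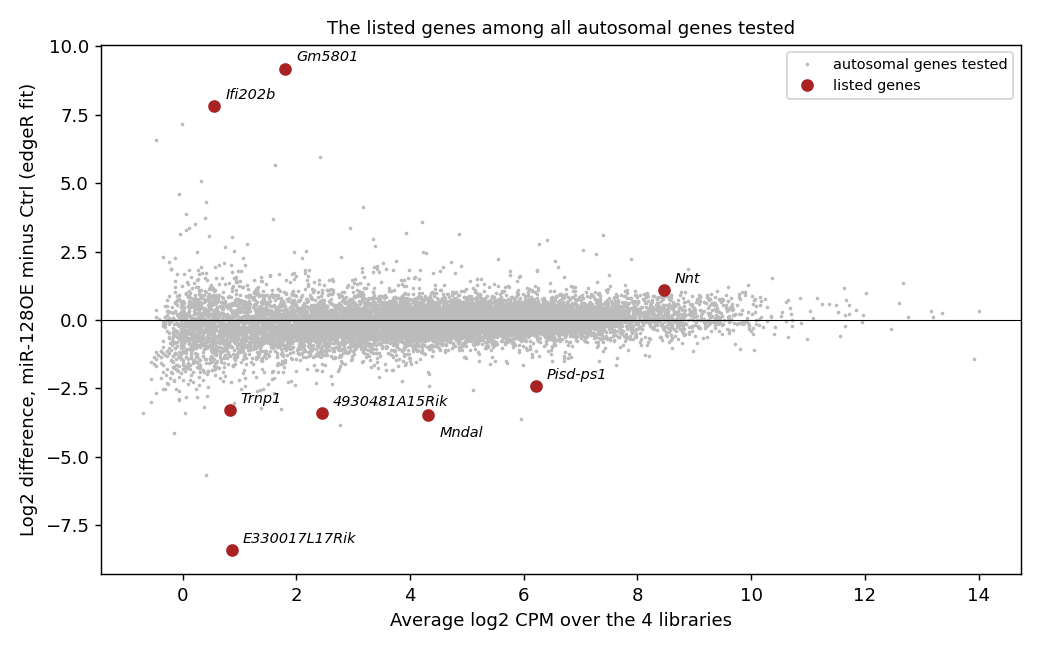
Log2 difference (miR-128OE minus Ctrl, edgeR fit) against the average log2 CPM of all autosomal genes tested, with the 8 listed genes in red. Gm5801 and Ifi202b lie at the top edge and E330017L17Rik at the bottom, where the fitted value depends on the prior count, while Nnt at 1.09 lies among the abundant genes.

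Ordered by level per kb of longest transcript in the group where each gene was higher, Nnt (138 CPM per kb) and Pisd-ps1 (113) came first, followed by Mndal (18.5), Gm5801 (7.86), 4930481A15Rik (4.89), E330017L17Rik (4.06), Trnp1 (1.85) and Ifi202b (1.39). Trnp1 and Ifi202b, the last of this order, differed by less than the sum of their SDs. The listed genes thus span from an abundant mitochondrial enzyme to a transcript with at most 39 counts in a library.

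Genes around the listed ones, which the listing did not use, were compared with the autosomal background. Within 1 Mb to each side of the 8 genes, 256 other genes were tested and 93 passed the adjusted p, which is 36.3% beside 31.3% of all autosomal genes. Of the 93, 46 were higher and 47 lower, and 24 had a difference as large as that of Nnt. The share was 39.0% within 0.5 Mb and 34.8% within 5 Mb. Leaving out WH9 left 40 calls and leaving out WH10 left 45, with fewer calls across the whole table as well. No set test was made, and a share near the background says little about the loci. The window around Ifi202b and Mndal had the lowest share, 2 of 11 genes or 18.2%, and that around Pisd-ps1 the highest, 10 of 21 or 47.6%. Between these lay Trnp1 (32.6% of 46), 4930481A15Rik (32.6% of 86), Gm5801 (40.9% of 44), E330017L17Rik (41.0% of 39) and Nnt (44.4% of 9).

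The neighbours did not share the direction of the listed gene as a rule. The window of Nnt leaned its way, with 3 of the 4 called genes higher and 1 lower. The median log2 difference of the 9 genes tested there was 0.46. Beside Nnt, Paip1, a translation factor partner and the nearest tested gene at 19074 bases, rose by 0.47 on the log2 scale, and Hmgcs1, an enzyme of sterol synthesis, rose by 0.59, while 4833420G17Rik fell by 0.61. Beside the Ifi200 pair, Cadm3, a cell adhesion gene, rose by 1.68. Around Pisd-ps1, Dusp18, a phosphatase, had 290 and 210 counts in Ctrl against 1011 and 1124 in miR-128OE (log2 difference 1.80, edgeR adjusted p = 7.81e-06), opposite to the pseudogene, and Inpp5j, an inositol phosphatase, rose by 0.62. Around 4930481A15Rik, the nuclear noncoding RNA Malat1 fell by 1.43, Ctsf, a lysosomal protease, fell by 1.91, and Pygm, the muscle glycogen phosphorylase, rose by 0.84.

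Around Gm5801, 18 genes were called, 6 of them higher and 12 lower in miR-128OE, and the median log2 difference of the 44 tested was -0.10. Those named here were lower. Mcpt4, a mast cell protease and the nearest tested gene at 48264 bases, had 89 and 53 counts in Ctrl against 10 and 23 in miR-128OE (log2 difference -2.39, edgeR adjusted p = 0.000973). Cma1, a further mast cell protease, fell by 2.35 (the content of mast cells was not tested), Carmil3, an actin regulator, by 1.60 and Pck2, the mitochondrial phosphoenolpyruvate carboxykinase, by 1.08. Around E330017L17Rik, Fabp3, the heart fatty acid binding protein, rose by 1.17, Hdac1, a histone deacetylase, fell by 0.72 and Ccdc28b fell by 0.91, and the nearest tested gene, the phosphatase Ptp4a2, differed by -0.10 (edgeR adjusted p = 0.435). Beside Trnp1, Tent5b, a nucleotidyltransferase gene only 3157 bases away, had 4 and 2 counts in Ctrl against 20 and 22 in miR-128OE and rose by 2.48 (edgeR adjusted p = 0.00745), the opposite of Trnp1. Extl1, a glycosyltransferase gene, rose by 1.81, Trim63, a ubiquitin ligase of muscle, by 0.57 and Stx12, a syntaxin, by 0.52.

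**Figure D4:**
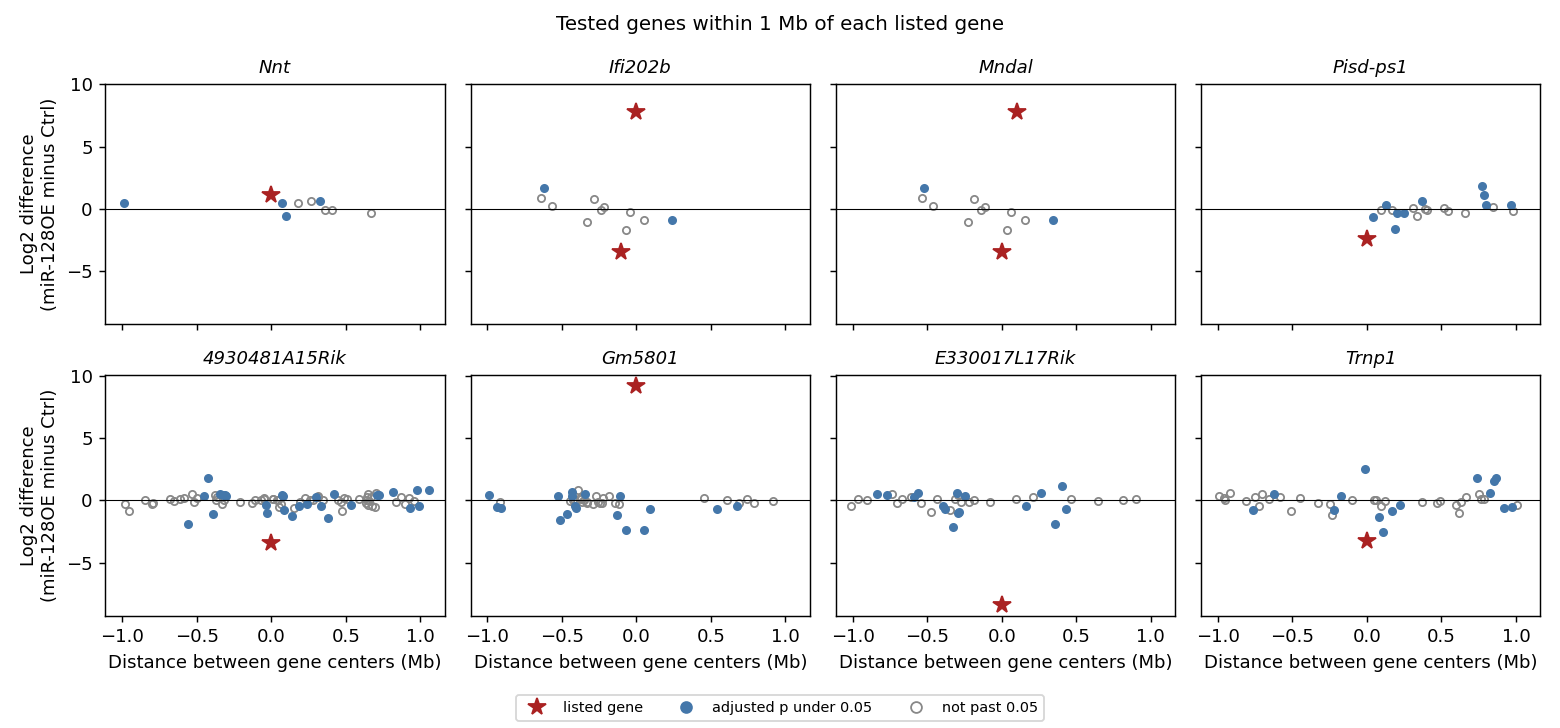
Log2 difference (miR-128OE minus Ctrl, edgeR fit) of tested genes within 1 Mb of each listed gene, against the distance between gene centers in Mb; stars are listed genes and filled points passed the adjusted p. Called neighbours lie on both sides of 0, 46 higher and 47 lower over all windows.

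Genes known for variants between mouse strains were read for their counts alone. Among those known to differ between C57BL/6 substrains, Nnt aside, Cyfip2, an actin regulator with a missense variant in C57BL/6N, had 333 and 340 counts in Ctrl against 106 and 111 in miR-128OE (log2 difference -1.97, edgeR adjusted p = 0.000284). Mmrn1, a gene of platelets and endothelium that is deleted in a C57BL/6 subline, had 103 and 66 against 41 and 76 (log2 difference -0.83, adjusted p = 0.0361). All 4 libraries therefore held reads of Mmrn1. Crb1, which carries the rd8 frameshift in C57BL/6N, had 0 to 2 counts, and Nlrp12 had 1 to 3, too few to test. Of the 3 genes tested in this list, Nnt aside, edgeR called 1 higher and 2 lower in miR-128OE, and DESeq2 called 2. Beside these counts stand 16.4% called higher and 14.9% called lower by edgeR among all autosomal genes tested. A list of 3 genes says little beside these shares.

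Among genes known to vary between C57BL/6 and other inbred strains, Ifi202b aside, 6 were tested, with 1 higher and 2 lower in miR-128OE. Over all autosomal genes tested, 16.4% were called higher and 14.9% lower, and so few genes say little beside these shares. H2-Ea, which C57BL/6 mice do not express, had 0 counts in both Ctrl libraries and 1 in each miR-128OE library. Hc, the complement C5 gene, had 0 to 1. Tyr, the tyrosinase gene of albino strains, had 166 and 104 counts in Ctrl against 63 and 80 in miR-128OE (log2 difference -1.20, edgeR adjusted p = 0.00139). Ly6a, whose haplotypes differ in expression, fell by 0.41 (adjusted p = 0.0112), and Glo1, which is duplicated in several strains, rose by 0.34 (adjusted p = 0.0252). Scaled to total counts, Glo1 did not pass. Mx1 (log2 difference -0.78), Apobec3 (-0.45) and Fcgr2b (0.42) did not pass. Without WH9 the count was 1 of 6, and without WH10 it was also 1. A change in the level of such a gene is not a genotype, and no count here tells which allele was expressed.

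The autosomal genes with the most similar pattern were sought by the Euclidean distance of centred log2 CPM (pseudocount 0.5) over the 4 libraries, against the median profile of the listed genes in each direction. For the 3 higher genes these were Eno1b, an enolase gene (distance 0.25, with 71 and 46 against 348 and 450 counts), Dusp1, a MAP kinase phosphatase (0.33, with 643 and 383 against 3074 and 3594), and Nr4a1, a nuclear receptor (0.34, with 248 and 163 against 1527 and 1914). For the 5 lower genes they included Lgr6, a receptor for R-spondins (0.29, with 224 and 184 against 27 and 34), and the lncRNA 5031426D15Rik (0.44, with 757 and 509 against 108 and 159). In each of these the groups did not overlap, which follows from how they were sought and held for 68.0% of autosomal genes tested.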

How the data were processed

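Heart RNA-seq libraries at postnatal day 7 (2 Ctrl, 2 miR-128OE) were used; hearts of other ages, which the series' design also names, were not analysed here. The deposited values are raw counts per Entrez gene: by the methods, TopHat2 was run by the authors on quality-filtered reads against mm10, and known genes were counted with Bioconductor packages. Gene models, strand setting and the treatment of reads with several matches are not given in the sources used here. Unplaced and multiply placed reads can lower the counts of near-identical copies and of exons missing from the C57BL/6J reference.

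Of 24454 identifiers, 24374 matched a symbol in RefSeq GRCm38.p6; the others held 2.73 to 3.74% of counts per library and stayed in the fit. Genes passing filterByExpr (minimum count 10, minimum total 15) were tested with edgeR 4.0.16 (R 4.3.3) by glmQLFit and glmQLFTest with TMM factors and Benjamini-Hochberg adjustment over 14266 genes. Total counts of 8096870 to 14359838 set the precision, and 3 counts in a library were taken as the limit that 0 allows, for counting error only. Transcripts were compared with blastn 2.17.0 (at least 90% identity over 100 bases). Of these steps, only the edgeR test was tried on simulated counts with known changes. The members, gene lists (Ifi200, interferon-stimulated, mitochondrial NADPH, phosphatidylethanolamine, strain variants, and markers of cardiomyocytes, leukocytes, erythroid cells, neurons and glia, and brown fat) and tests were chosen with earlier results of these data known. Besides the 8 listed genes, those named are, per 1 Mb window, up to 3 called genes by smallest p and the nearest tested gene, every Ifi200, Pisd and strain-variant gene, up to 3 called genes of each other list (otherwise that with the most counts), and 3 nearest profiles per direction. Cidea and Adipoq, Etnk1 and Pcyt2, Elovl3, Idh2, Ube2j2, Uqcr10, the sex-linked genes and Fat2 with 2900052N01Rik were named outside this rule after their values were seen. Alternatives were DESeq2 1.42.0, other scalings and filters, other windows and leaving out each library. Some genes that the rule names are not reported here.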

Additional observations from a re-analysis of the deposited data

How the results depend on the processing

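The log2 differences of the 8 listed genes kept their direction in all 10 fits: 0.90 to 1.31 for Nnt, -3.69 to -3.29 for Mndal, -2.50 to -2.36 for Pisd-ps1, -3.56 to -3.20 for 4930481A15Rik and -3.45 to -3.05 for Trnp1. For the 3 genes at 0 in a group the fitted value depends on the prior count and ran from 7.06 to 8.04 for Ifi202b, 8.44 to 9.32 for Gm5801 and -8.65 to -7.97 for E330017L17Rik. The 8 genes were chosen by their counts in these same libraries, so a kept direction follows from that choice and is no support. DESeq2 called 1410 genes lower. Windows of 0.5 Mb held 60 called genes and windows of 5 Mb held 240, since they hold fewer or more genes. Leaving out a library gave 897 to 2654 genes higher, 667 to 2384 lower, 40 to 99 called within 1 Mb of a listed gene and 22 to 55 called in the lists. The lowest of each was without WH9 (miR-128OE replicate 1), and without WH10 1265 were higher and 1020 lower. In these fits the lone library was assumed to vary like the other group. Scaling to total counts moved the median log2 difference of all genes to -0.11. No paired analysis was possible because replicate numbers were given in accession order and do not tie Ctrl to miR-128OE libraries. With 2 libraries a group, genes with few counts, such as Trnp1 and Ifi211, have the least precise differences, and a gene at 0 can be bounded only to 3 counts.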

Other observations

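Beside the 3 listed genes, 2 more of the 13749 autosomal genes tested had 0 counts in both libraries of a group and counts in both of the other; these 5 are 0.0364% of the genes. Fat2, a giant cadherin of the FAT family, had 0 counts in both Ctrl libraries and 12 and 14 in miR-128OE. The lncRNA 2900052N01Rik had 0 in both Ctrl libraries and 22 and 17 in miR-128OE.

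Other cells of the heart were read from their markers. Of 8 cardiomyocyte markers, 4 were higher and 1 was lower in miR-128OE by edgeR. Over all autosomal genes tested, 16.4% were called higher and 14.9% lower. Actc1, the cardiac α-actin, had 46797 and 31180 counts in Ctrl against 116226 and 124690 in miR-128OE, and rose by 1.34 on the log2 scale. Myl3, a ventricular myosin light chain, rose by 0.64 and Ryr2, the calcium release channel, fell by 0.40. Without WH9 2 of the 8 were called and without WH10 3. Of 4 neuron and glia markers tested, 1 was higher and 1 was lower. Of the erythroid markers, 4 hemoglobin genes were listed at 0 in all 4 libraries. These genes have near-identical copies, and how reads with several matches were counted is not given, so the zeros are no reading of red cell content. Of the 2 erythroid markers tested, Alas2, which starts heme synthesis in red cells, rose by 1.05, and Slc4a1, the anion exchanger of red cells, differed by 0.21 (edgeR adjusted p = 0.521).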
